A study of Mus musculus with 4 samples.

Results

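Integrins are adhesion receptors built from 1 alpha and 1 beta chain, and 9 of their genes were followed here in naive CD8 T cells of mice lacking the transcription factor Klf13: Itgae, Itgb7, Itga4, Itgb1, Itga6, Itgal, Itgb2, Itgav and Itgb3. They were taken as a list of leukocyte integrin chains, each read from the probe set paired with its symbol alone, and all 9 were among the 19938 genes measured. Naive CD8 T cells had been isolated from spleens by fluorescence-activated sorting. Of the 4 samples, 2 had the genotype KLF13 KO and 2 were wild type, all of strain BALB/c, each on its own 1-colour array. Neither the deleted part of the gene, the age of the mice nor the number of animals behind the samples is given in the labels. If the replicates share animals, the p-values reflect technical spread only.

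A leukocyte crawls, arrests and settles through its integrins, which are held in a bent, inactive form until signals inside the cell make talin and kindlin bind the tail of the beta chain. The alpha chain largely sets the ligand: alpha E with beta 7 (the alpha chain is CD103) binds E-cadherin on epithelium, alpha 4 binds VCAM-1 when paired with beta 1 and MAdCAM-1 when paired with beta 7, alpha L with beta 2 (LFA-1) binds ICAMs, alpha 6 with beta 1 binds laminins, and alpha V binds proteins carrying an RGD motif, among them latent TGF-beta. Beta 3 pairs with alpha V and, on platelets, with alpha IIb. In the mouse, CD103 is carried by many naive CD8 T cells, by T cells of epithelia, by part of the regulatory T cells and by the dendritic cells that cross-present antigen, and TGF-beta raises it.

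RefSeq promoter entries (GRCm38.p6, the C57BL/6J reference, whereas the mice were BALB/c) were found for 4 of the 9 chains, Itga4, Itgb7, Itgb1 and Itgav. Those of Itga4 and of its pair of partner chains are shown, because Itga4 changed in the knockout while Itgb7 and Itgb1 did not pass the test. Each is the 250 bases upstream of the annotated start, on the strand of the gene. Capitals mark CACCC or its complement GGGTG, the core of the box that KLF factors bind, and GGGCGG or CCGCCC, the GC box. In none of the 4 windows did a match of the first motif overlap one of the second.
Itga4, chr2:79255176-79255425, plus strand: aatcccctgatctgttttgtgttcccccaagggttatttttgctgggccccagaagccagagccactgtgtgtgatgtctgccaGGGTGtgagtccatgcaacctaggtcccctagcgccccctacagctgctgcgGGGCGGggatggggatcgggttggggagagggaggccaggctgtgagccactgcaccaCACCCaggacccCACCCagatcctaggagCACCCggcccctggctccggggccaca
Itgb7, chr15:102231936-102232185, minus strand: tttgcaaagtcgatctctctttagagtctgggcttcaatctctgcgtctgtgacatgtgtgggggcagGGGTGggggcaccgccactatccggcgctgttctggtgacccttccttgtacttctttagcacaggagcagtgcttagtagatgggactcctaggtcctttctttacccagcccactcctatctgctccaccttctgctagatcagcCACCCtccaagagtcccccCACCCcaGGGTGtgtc
Itgb1, chr8:128685404-128685653, plus strand: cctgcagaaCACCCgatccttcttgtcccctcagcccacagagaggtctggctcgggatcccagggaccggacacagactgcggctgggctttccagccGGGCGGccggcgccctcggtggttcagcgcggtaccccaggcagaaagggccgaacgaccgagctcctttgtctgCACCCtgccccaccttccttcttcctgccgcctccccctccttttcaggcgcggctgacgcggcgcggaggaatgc
Itga4 and Itgb7 each held 4 CACCC matches, Itgb1 held 2 and Itgav 1. Of 32851 promoter windows of the same length, 52.0% held at least 1 such match and 2.14% at least 4. The GC box was found once each in Itga4 and Itgb1 and not in Itgb7 or Itgav, against 32.7% of all windows with at least 1. Itga4, the only called chain with a promoter entry, and Itgb7, which did not pass, thus held the same number of CACCC matches. No entry was found for the other called chains, Itgae and Itgb3. Whether Klf13 acts on any of these promoters was not tested. A match is a run of letters and not a measured site.

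The deposited values are on a log2 scale, so a difference of 1 is a doubling, and they were compared with limma, adjusted over all genes (a gene is called at an adjusted p under 0.05). Probe sets bind with unequal strength, and the level of one chain is therefore not set against that of another. Klf13 itself had 5.46 and 5.43 in the KO arrays against 7.01 and 7.15 in the WT arrays (log2 fold change -1.63, SE 0.10, limma adjusted p = 3.75e-05); whether its probe set lies inside the deleted part is not known. The sorted cells carried the transcripts that define them. Cd8a had 11.11 and 11.14 in KO against 11.25 and 11.12 in WT. Cd8b1 had 10.88 and 10.92 in KO against 10.86 and 10.96 in WT. Of 9 measured CD8 T cell core genes limma called 0, and 1 had an unadjusted p under 0.05. This was Thy1, lower in KO with 9.35 and 9.47 against 9.75 and 9.76 in WT (log2 fold change -0.34, limma adjusted p = 0.109). Of the 9 log2 fold changes 3 were above 0. Of all genes, 448 were called, 238 higher and 210 lower in KO; with arrays centred on their medians there were 1088, and the share higher in KO was 21.8%, against 53.1% without centring. Arrays of 1 group differed with an SD over genes of 0.191 (KO) and 0.128 (WT), and arrays of unlike genotype by 0.192 to 0.254.

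Of the 9 chains, 3 were called by limma and all 3 were higher in KO: Itgb3, Itgae and Itga4. The other 6 did not pass the test, and none of those 6 had an unadjusted p under 0.05. Over all genes 1.19% were called higher in KO and 1.05% lower. The groups did not overlap for 6 of the 9 chains (KO above in 4, below in 2), against 47.6% of all genes. The median log2 fold change of the 9 chains was 0.11, against 0.02 over all genes, and the chains ranged from -0.16 to 1.15.

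**Figure D1:**
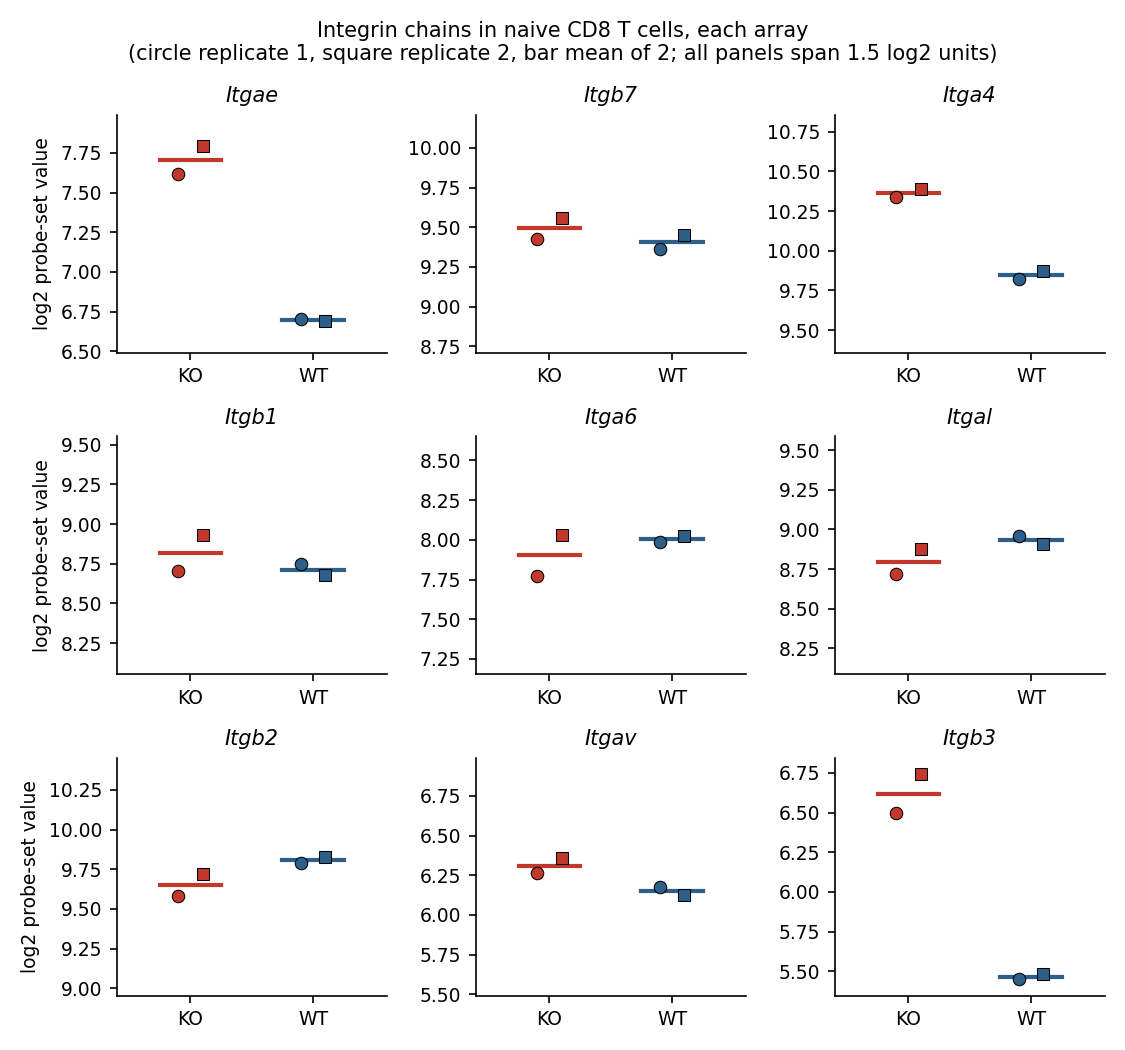
Log2 probe-set values of the 9 integrin chains on each array, KLF13 KO left and wild type right; circles are replicate 1, squares replicate 2 and bars the mean of 2 arrays, and every panel spans 1.5 log2 units. The KO arrays stand clear of the WT arrays for Itgae, Itgb3 and Itga4, while the points of the other 6 chains lie close together or mixed.

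Itgae encodes the alpha E chain, CD103. It had 7.61 and 7.79 in the KO arrays against 6.70 and 6.69 in the WT arrays. Both KO arrays were high and both WT arrays low, with a gap larger than the difference between arrays of 1 group. The means were 7.70 ± 0.13 in KO and 6.69 ± 0.01 in WT (SD, n = 2 each), a 2.01-fold rise (log2 fold change 1.01, 95% interval 0.79 to 1.23, limma adjusted p = 6.29e-04). In bulk RNA of this kind, more cells that express the gene and more RNA per cell cannot be told apart.

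The beta chain that alpha E needs, beta 7, is encoded by Itgb7. Its values were 9.43 and 9.56 in KO against 9.36 and 9.45 in WT, and the groups overlapped. The log2 fold change was 0.09 with a 95% interval of -0.13 to 0.30 (limma adjusted p = 0.709), so a change of the size seen in Itgae lay outside the interval. The alpha chain of this heterodimer rose, and its beta chain, which alpha 4 also uses, did not pass.

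Itga4 encodes alpha 4, the chain shared by the VCAM-1 receptor and the gut-homing receptor. Its values were 10.34 and 10.39 in KO against 9.82 and 9.87 in WT. The KO arrays lay above the WT arrays, and the arrays of each group were almost equal. The means were 10.36 ± 0.04 in KO and 9.85 ± 0.04 in WT (SD, n = 2 each), a 1.43-fold rise (log2 fold change 0.52, 95% interval 0.31 to 0.72, limma adjusted p = 0.0194). Left to 1 WT array, the test no longer called it (limma adjusted p = 0.148 without wild-type replicate 1 and 0.0554 without wild-type replicate 2, log2 fold changes 0.49 and 0.54).

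Itgb1 encodes beta 1, the other partner of alpha 4 and the partner of alpha 6. It had 8.70 and 8.93 in KO against 8.75 and 8.68 in WT, so the groups overlapped (log2 fold change 0.11, 95% interval -0.13 to 0.34, limma adjusted p = 0.673). Itga6 encodes the laminin-binding alpha 6 chain. Its values were 7.77 and 8.03 in KO against 7.99 and 8.02 in WT, again with overlap (log2 fold change -0.10, 95% interval -0.34 to 0.14, limma adjusted p = 0.692). The sign of both chains turned when 1 KO array was left out, so neither has a direction in these data. Neither beta partner of alpha 4 thus passed the test that Itga4 passed.

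LFA-1, the main integrin of T cell arrest and of the synapse with antigen-presenting cells, is made of the chains encoded by Itgal and Itgb2. Itgal had 8.72 and 8.88 in KO against 8.96 and 8.91 in WT (log2 fold change -0.13, 95% interval -0.35 to 0.08, limma adjusted p = 0.542). Itgb2 had 9.58 and 9.72 in KO against 9.79 and 9.83 in WT (log2 fold change -0.16, 95% interval -0.37 to 0.06, limma adjusted p = 0.459). For both, the KO arrays lay below the WT arrays by little, as was the case for 23.2% of all genes, and neither passed. Itgal lies on chromosome 7, as Klf13 does.

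Itgb3 encodes beta 3 and had the largest change of the 9 chains. Its values were 6.50 and 6.74 in KO against 5.45 and 5.49 in WT. Both KO arrays stood more than 1 log2 unit above both WT arrays. The means were 6.62 ± 0.18 in KO and 5.47 ± 0.03 in WT (SD, n = 2 each), a 2.22-fold rise (log2 fold change 1.15, 95% interval 0.92 to 1.39, limma adjusted p = 4.95e-04). It was the 21st highest of the 19938 log2 fold changes and Itgae the 29th, and Itga4 was the 186th. The intervals of Itgb3 and Itgae overlapped, while that of Itga4 lay below both.

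Itgav encodes alpha V, the partner of beta 3 outside platelets. It had 6.26 and 6.36 in KO against 6.17 and 6.13 in WT. The KO arrays lay above the WT arrays, which held for 24.4% of all genes, and the difference did not pass (log2 fold change 0.16, 95% interval -0.05 to 0.37, limma adjusted p = 0.440). Itga2b encodes alpha IIb, with which beta 3 forms the fibrinogen receptor of platelets and megakaryocytes. It had 5.73 and 5.79 in KO against 5.15 and 5.35 in WT and was called (log2 fold change 0.51, SE 0.10, limma adjusted p = 0.0330). That call was lost without either KO array, without wild-type replicate 1 and after a further quantile normalization, with adjusted p from 0.0504 to 0.372.

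Within the knockout group, replicate 1 lay below replicate 2 for 9 of the 9 chains, by 0.06 to 0.26 log2 units, whereas this held for 54.9% of all genes. Knockout replicate 1 also had the lowest upper quartile over the whole table, 6.52, below the 6.63 of knockout replicate 2 and the 6.67 and 6.66 of the WT arrays. Its median, 4.36, was not below the 4.31 of knockout replicate 2. The 9 chains lay above these medians, so the share over all genes, dim ones included, is an unlike comparison. With either KO array alone, Itgae kept a log2 fold change of 1.10 or 0.92 and Itgb3 one of 1.28 or 1.03, and both remained called (limma adjusted p from 0.00460 to 0.0127).

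**Figure D2:**
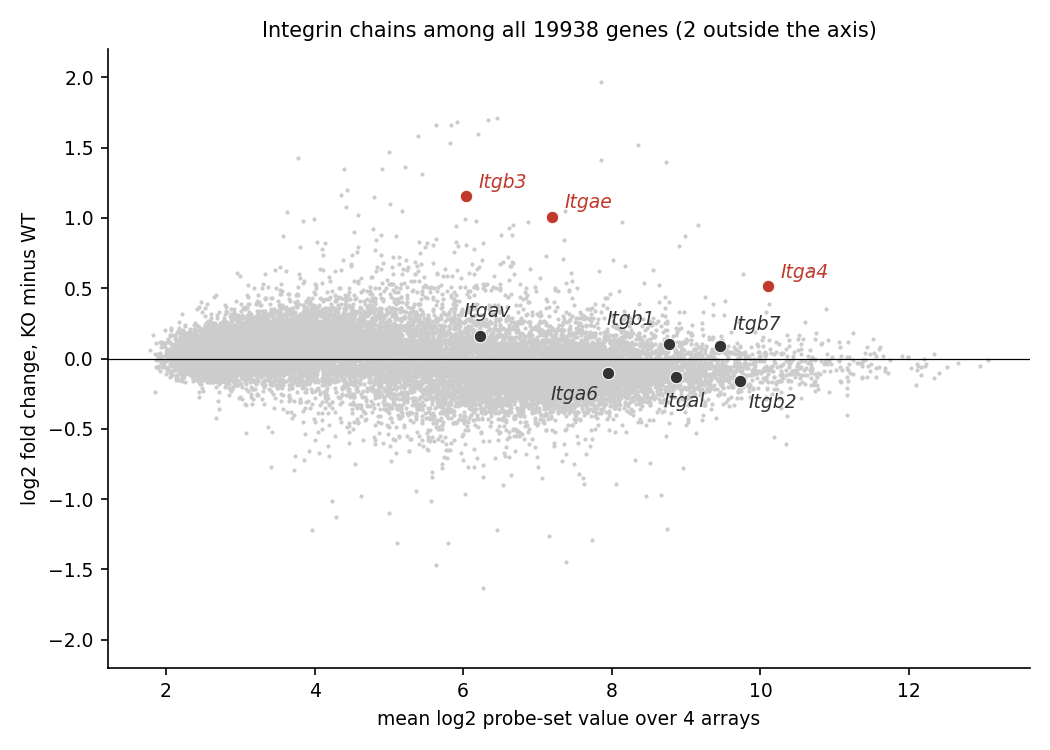
Log2 fold change, KO minus WT, against the mean log2 value over the 4 arrays, for all 19938 genes (grey, 2 of them outside the axis) and the 9 integrin chains (red where called, dark where not). Itgb3, Itgae and Itga4 lie at the upper edge of the cloud at their levels, and the other 6 chains lie inside it.

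The other 17 integrin chains of the mouse were all measured. Of these, Itga2b rose, 0 fell and 16 did not pass, with a median log2 fold change of 0.11; at an unadjusted limma p under 0.05, 4 were higher and 0 lower in KO. Over all genes, 7.85% were higher and 8.75% lower in KO at that unadjusted p, 16.6% in all, which is the background for each such count. Itgax, the alpha chain of dendritic cells and macrophages, had 3.64 and 3.92 in KO against 3.35 and 3.23 in WT (log2 fold change 0.49, limma adjusted p = 0.0569). Itga2, the collagen-binding alpha 2 chain, had 5.01 and 5.06 in KO against 4.69 and 4.51 in WT (log2 fold change 0.43, limma adjusted p = 0.0602). Of all 26 chains, 4 were called higher and 0 lower. On chromosome 11 lay 5 of the 26 chains, and 3 of them were called, Itgae, Itgb3 and Itga2b; of all 1563 genes measured on that chromosome, 1.98% were called, against 2.25% of all genes.

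**Figure D3:**
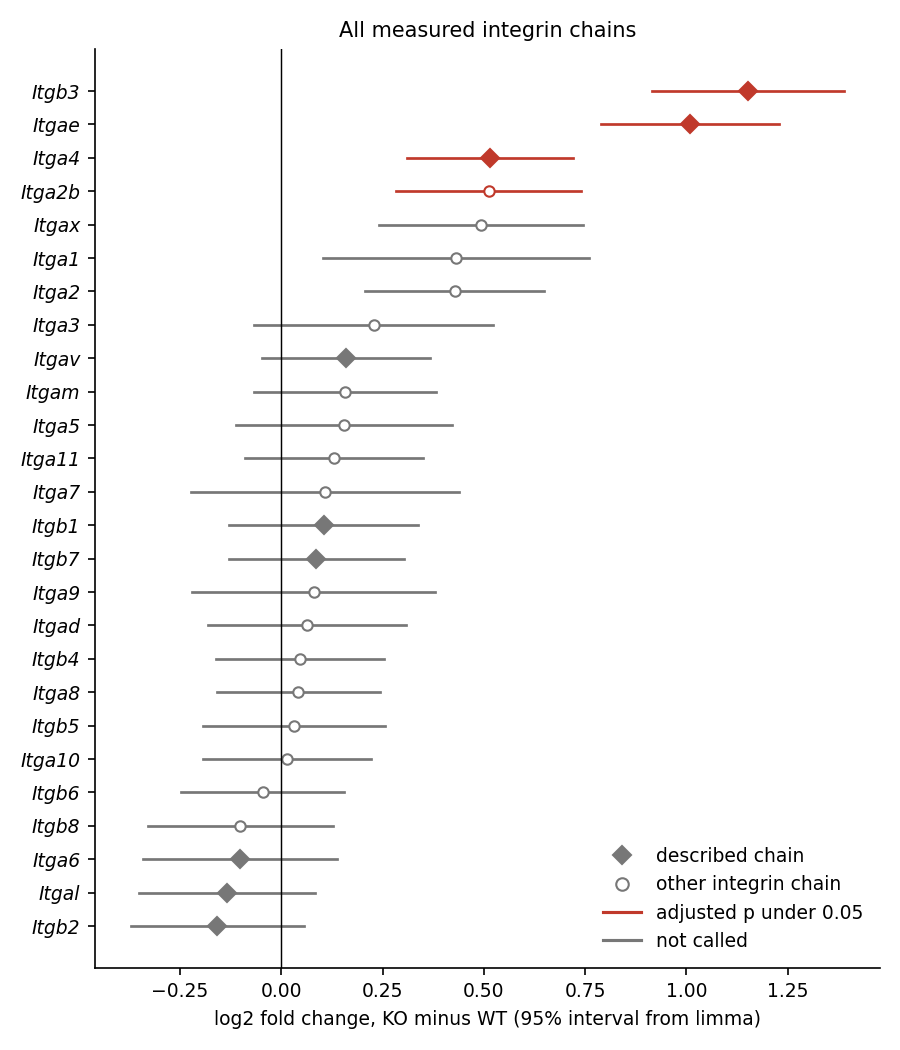
Log2 fold change, KO minus WT, of all 26 measured integrin chains with the 95% interval from limma; diamonds are the 9 described chains, open circles the other 17, and red marks an adjusted p under 0.05. Itgb3, Itgae, Itga4 and Itga2b are called, and the intervals of Itgb7, Itgb1, Itgal, Itgb2, Itga6 and Itgav span 0.

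Of the integrin ligands, 22 of 23 were measured and limma called 0. At an unadjusted limma p under 0.05, 3 of the 22 were higher and 0 lower in KO, against 7.85% and 8.75% of all genes. Cdh1, the E-cadherin gene that CD103 recognises, had 3.87 and 3.83 in KO against 3.79 and 3.83 in WT. The smallest p belonged to Lamc1, the laminin gamma 1 chain (log2 fold change 0.39, limma adjusted p = 0.0680), Lamb2, a laminin beta chain (0.31, limma adjusted p = 0.168), and Fn1, fibronectin (0.26, limma adjusted p = 0.206). The list median was 0.08.

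The machinery that switches integrins on was measured for 26 of 29 genes, of which 0 rose and 0 fell by limma (median log2 fold change -0.02), while 3 were higher and 5 lower in KO at an unadjusted p under 0.05, against 7.85% and 8.75% of all genes. Fermt3, which encodes kindlin-3, the activator of beta chain tails in blood cells, had 8.39 and 8.52 in KO against 8.78 and 8.85 in WT (log2 fold change -0.36, limma adjusted p = 0.102). The adaptor gene Skap1, which links the T cell receptor to LFA-1, had 7.57 and 7.78 in KO against 8.01 and 8.07 in WT (-0.37, limma adjusted p = 0.112). Rasgrp1, an exchange factor upstream of Ras, had 9.45 and 9.58 in KO against 9.16 and 9.25 in WT (0.31, limma adjusted p = 0.146). The groups did not overlap for any of the 3 genes, which were named for their small p, as for 47.6% of all genes. None passed the test, although each did under at least 1 other setting. Fermt3 and Skap1 passed after median centring (limma adjusted p of 0.0225 and 0.0240), which moved the all-gene median log2 fold change from 0.02 to -0.07. Rasgrp1 passed with a variance trend and robust moderation (limma adjusted p = 0.00859) but not after median centring (0.263). After a further quantile normalization none of the 3 passed (limma adjusted p of 0.116, 0.135 and 0.0681).

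Of 8 inhibitors of integrin activation, 0 rose and 0 fell by limma (median -0.10). At an unadjusted limma p under 0.05, 0 of the 8 were higher and 2 lower in KO, against 7.85% and 8.75% of all genes. Sharpin, which holds integrins inactive through the alpha tail, had 8.34 and 8.64 in KO against 8.85 and 8.90 in WT (log2 fold change -0.38, limma adjusted p = 0.127). Its limma adjusted p was 0.0261 after median centring, which moved the log2 fold changes of all genes down, and 0.165 after a further quantile normalization. Sipa1, which switches off Rap1, differed by -0.24 (limma adjusted p = 0.293), and Itgb1bp1, which binds the beta 1 tail, by -0.18 (limma adjusted p = 0.399).

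Of 11 membrane proteins that sit beside integrins, 1 rose, 0 fell and 10 did not pass (median 0.06), with the same counts at an unadjusted limma p under 0.05. The gene that rose was Cd9, a tetraspanin that associates with several integrins, with 7.68 and 7.79 in KO against 7.15 and 7.21 in WT (log2 fold change 0.55, SE 0.09, limma adjusted p = 0.0153, and 0.0864 without wild-type replicate 1). The tetraspanin genes Tspan32 (0.19, limma adjusted p = 0.355) and Cd37 (0.19, limma adjusted p = 0.355) did not pass.

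The TGF-beta pathway, known to induce Itgae, was measured with 21 genes. In KO 1 of them fell, 0 rose and 20 did not pass (median 0.06). At an unadjusted limma p under 0.05, 2 were higher and 1 lower in KO, a share near the 16.6% of all genes. The list holds both drivers and inhibitors of the pathway, so its median and counts have no single direction. Tgif1, a repressor of SMAD-driven transcription, was the gene that fell, with 6.33 and 6.61 in KO against 6.93 and 7.02 in WT (log2 fold change -0.51, SE 0.11, limma adjusted p = 0.0494). That call lay at the threshold and was lost under 5 of 11 other settings, among them the omission of knockout replicate 1 (limma adjusted p = 0.136). The ligand gene Tgfb1 had 9.00 and 9.08 in KO against 8.73 and 8.85 in WT (0.25, limma adjusted p = 0.240), and the accessory receptor gene Tgfbr3 differed by 0.26 (limma adjusted p = 0.279).

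CD103 is also a hallmark of T cells that stay in tissues, so genes of residency and egress were counted. Of 18 such genes 16 were measured, and 0 rose, 1 fell and 15 did not pass (median 0.04). At an unadjusted limma p under 0.05, 3 were higher and 2 lower in KO, against 7.85% and 8.75% of all genes. The list joins genes of staying and of leaving, so its median and counts have no single direction. The 2 lower genes were Cd69 and the egress gene Ccr7 (-0.27, limma adjusted p = 0.181). Cd69, which keeps T cells in tissue by opposing S1pr1, fell to 8.80 and 8.93 in KO, against 9.42 and 9.35 in WT (log2 fold change -0.53, SE 0.10, limma adjusted p = 0.0219), a call lost without knockout replicate 1 (0.0759) or wild-type replicate 1 (0.144). Ahr, a ligand-activated transcription factor (0.36, limma adjusted p = 0.141), and Nr4a1, an early response gene of T cell receptor signalling (0.36, limma adjusted p = 0.164), did not pass.

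**Figure D4:**
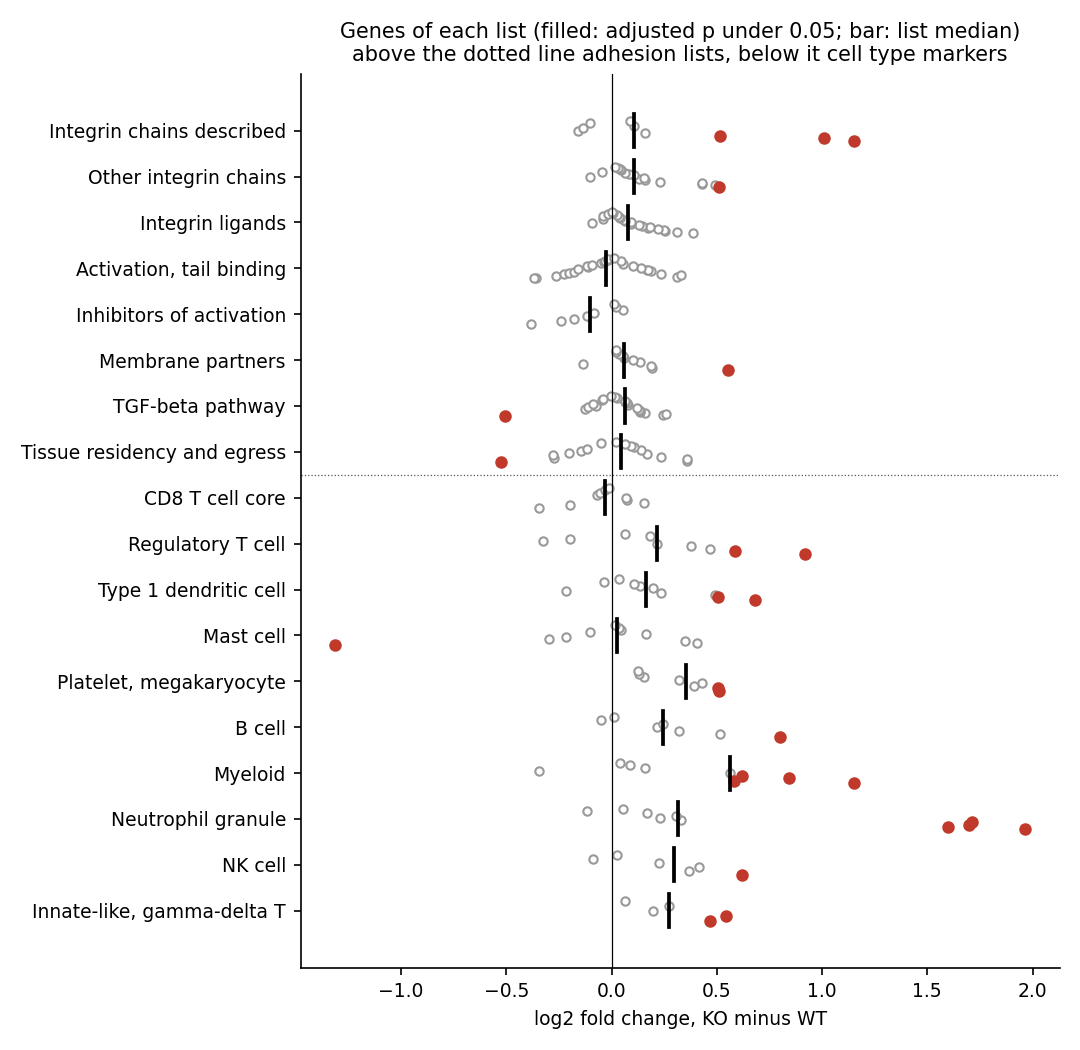
Log2 fold change, KO minus WT, of each measured gene in the adhesion lists (above the dotted line) and in the cell type marker lists (below it); filled points passed the limma test and black bars are list medians. The medians of the 8 adhesion lists lie between -0.10 and 0.11, and those of the 10 marker lists between -0.03 (CD8 T cell core) and 0.56 (myeloid).

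Some markers of other cell types that carry these integrins passed the test as well, and their part in the changes of Itgae, Itgb3, Itga4 and Itga2b was not tested. A number in parentheses after a marker gene is its log2 fold change, and the level of a list is the mean log2 value of its genes on each array. Some regulatory T cells carry CD103. Of 9 of their markers, Gpr83 (0.92) and Ikzf2 (0.59) rose and 7 did not pass. At an unadjusted limma p under 0.05, 4 were higher and 0 lower in KO. Ctla4 (-0.33, limma adjusted p = 0.327) and Tnfrsf4 (-0.20, limma adjusted p = 0.460) differed in the other direction. Their mean level was 5.06 and 5.21 in KO against 4.97 and 4.79 in WT, and the defining factor Foxp3 had 4.44 and 4.55 in KO against 4.64 and 3.99 in WT, with overlap (limma adjusted p = 0.650).

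Cross-presenting dendritic cells carry CD103 too. Of 10 of their markers, Flt3 (0.68) and Wdfy4 (0.51) rose and 8 did not pass. At an unadjusted limma p under 0.05, 4 were higher and 0 lower in KO, and 1 of these 4 was Itgax, an integrin chain given above. Of the 10 log2 fold changes 8 were above 0, while Cd24a was lower in KO (-0.22, limma adjusted p = 0.330). The mean level was 5.20 and 5.23 in KO against 5.02 and 4.98 in WT. The defining markers Xcr1, with 3.76 and 3.74 in KO against 3.56 and 3.48 in WT, and Clec9a, with 2.73 and 2.82 in KO against 2.67 and 2.61 in WT, did not pass. Of 10 mast cell markers, cells that carry alpha E in mucosa, Mcpt1 fell (-1.31) and 9 did not pass. Limma gave 2 higher and 2 lower in KO at an unadjusted p under 0.05. Their mean level was 4.73 and 4.74 in KO against 4.83 and 4.81 in WT, which includes the fall of Mcpt1. The list median log2 fold change was 0.02, and 6 of the 10 were above 0.

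Platelets and megakaryocytes carry beta 3 with alpha IIb. Of 11 of their markers 8 were measured; Itga2b, itself an integrin chain, and Pf4 (0.51) rose and 6 did not pass. The mean level was 4.80 and 4.88 in KO against 4.54 and 4.50 in WT, and the list median log2 fold change was 0.35. Itga2b enters these values and the counts that follow, so for Itga2b the list is not a separate measure. All 8 log2 fold changes were above 0, as were 10781 of the 19938 over all genes. The median log2 fold change was -0.06 over the 9969 brighter genes, against 0.02 over all genes, so it differed with level. The shares over all genes are not matched for level, here or for the other marker lists. The KO arrays lay above the WT arrays for 7 of the 8, against 24.4% of all genes. At an unadjusted limma p under 0.05, 5 were higher and 0 lower in KO, against 7.85% and 8.75% of all genes. Besides Itga2b and Pf4 these were Ppbp (0.43, limma adjusted p = 0.164), Treml1 (0.39, limma adjusted p = 0.0887) and Tubb1 (0.32, limma adjusted p = 0.171). The smaller differences were those of Clec1b (0.15), Gp9 (0.13) and Gp5 (0.13).

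Among the other marker lists, 4 of 9 myeloid genes rose (Lyz2 1.15, Mpeg1 0.84, Tyrobp 0.62 and Csf1r 0.58), with a mean level of 4.58 and 4.75 in KO against 4.27 and 4.23 in WT. Of 10 neutrophil granule genes 4 rose (Mpo 1.97, Prtn3 1.71, Ctsg 1.70 and Elane 1.60), with means of 4.99 and 4.96 in KO against 4.12 and 4.24 in WT. Of 7 measured B cell genes Ighm rose (0.80), with means of 5.79 and 5.89 in KO against 5.49 and 5.59 in WT. Of 6 NK cell genes only Tyrobp rose, which is also counted among the myeloid genes. The NK cell means were 3.20 and 3.26 in KO against 2.97 and 2.97 in WT. Of 5 measured innate-like and gamma-delta T cell genes Il17rb (0.54) and Il23r (0.47) rose, with means of 5.28 and 5.47 in KO against 5.04 and 5.09 in WT. At an unadjusted limma p under 0.05, 5 myeloid, 6 neutrophil granule, 4 B cell, 4 NK cell and 2 innate-like genes were higher in KO, and 1 myeloid gene was lower. None of these lists had a member at 0, since normalized array values have no true zero.

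Genes with the profile most like that of Itgae were sought by the distance between log2 profiles over the 4 arrays, each centred on its own mean, which is a description and in which the size of the genotype difference weighs most. The 5 nearest were Tmem176b (distance 0.0442), which encodes a membrane protein, Prmt2 (0.0756), an arginine methyltransferase gene, Wls (0.0759), which encodes a carrier of Wnt proteins, Klri1 (0.0831), an NK-type receptor gene, and Plaur (0.0924), the urokinase receptor gene. Wls had 7.09 and 7.21 in KO against 6.18 and 6.21 in WT. Their log2 fold changes lay between 0.94 and 1.05.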

How the data were processed

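RNA of 4 samples was measured, 1 array each. Per the submitters' processing notes, which name RMA and Partek without versions, the authors deposited normalized log2 values per probe set; their range of 1.34 to 13.5 is that of RMA values. RMA makes array distributions more alike, so a shift of most genes would be largely removed, and changes of dim genes are compressed. The deposited arrays still differed, with upper quartiles from 6.52 to 6.67. Medians over genes were 4.71 and 4.66 in KO against 4.59 and 4.61 in WT. Depth does not apply; the number of arrays limits precision. GEO's platform annotation gave 1 symbol for 21789 of 35556 probe sets, several for 1621 and none for 12146. Symbols were updated by gene identifier to RefSeq (GRCm38.p6; 21698 matched). Each gene was read from its probe set with the highest mean; the 9 chains had 1 each.

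KO minus WT was fitted with limma 3.58.1 in R 4.3.3 (lmFit, eBayes, genotype only, two-sided, Benjamini-Hochberg over 19938 genes, threshold 0.05; prior degrees of freedom 8.06), after a test on simulated data. No level filter was used. Members and lists were chosen with earlier results of these data known. Named were the 9 chains, Klf13, called list members (up to 6 per pathway list, filled to 3 by smallest p, and up to 4 per marker list) and the 5 profiles nearest to Itgae. Cdh1, Itgax, Foxp3, Xcr1, Clec9a, Cd8a and Cd8b1 are named besides as defining genes. The measured platelet markers, Ctla4, Tnfrsf4, Cd24a, Thy1 and Ccr7 were named after their values were seen. Alternatives were other probe-set choices, a level filter, further normalization or centring, another variance model, the replicate number as a block, and each array left out.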

Additional observations from a re-analysis of the deposited data

How the results depend on the processing

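Under the 11 alternatives, Itgae kept log2 fold changes of 0.92 to 1.10 (limma adjusted p from 7.32e-16 to 0.0127), Itgb3 of 1.03 to 1.28 (6.74e-21 to 0.0117) and Klf13 of -1.72 to -1.56, and all 3 passed in each. Itga4 kept 0.43 to 0.60 and did not pass without wild-type replicate 1 (0.49) or wild-type replicate 2 (0.54); without single arrays it ranged from 0.49 to 0.54. Of the 9 chains, 2 were called without either wild-type array and 3 without either knockout array. Itgb1 turned to -0.0079 without knockout replicate 2 and ranged up to 0.22 with other arrays left out; Itga6 turned to 0.028 without knockout replicate 1 and ranged down to -0.23. The other 4 chains kept their sign and did not pass. Leaving out arrays leaves a group with 1 array, assumed to vary like the other group, and the cause of each lost call was not tested.

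Calls over all genes numbered 1088 after median centring and 831 with a variance trend and robust moderation, against 448, and 264 to 1536 with 1 array left out. With the replicate number as a block there were 1187; the labels do not say that numbers mark shared animals or days, and the differences between replicates 1 and 2 of each group correlated with r = 0.01 over 19938 genes. Under the block, Itgae, Itgb3 and Itga4 passed and the other 6 chains did not. Called members in the block were 4 of the other integrin chains, 1 ligand, 2 activation genes, 1 inhibitor and 3 residency genes. When 9969 brighter genes alone were fitted there were 2 other chains and 1 ligand. After a further quantile normalization there were 0 other chains and 0 TGF-beta genes, and all probe sets tested singly also gave 0 TGF-beta genes. Median centring gave 2 activation genes and 1 inhibitor. The variance trend gave 2 other chains, 4 activation genes, 1 inhibitor and 3 residency genes. With 1 array left out, called members were 0 to 2 for the other chains, 0 to 2 for activation genes, 0 to 1 for inhibitors, 0 to 1 for membrane partners, 0 to 1 for TGF-beta genes and 0 to 2 for residency genes. Counts of 0 here are limma counts at an adjusted p under 0.05. No detection calls were used, so signal over background was not assessed, and chains with low values may lie near it.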
